A study of Mus musculus with 36 samples.

Results

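Loss of HP1γ in naive CD4 T cells was examined in 6 ATAC-seq libraries, 3 of knockout (KO) cells and 3 of wild-type (WT) cells, of 36 in the series, over 71509 consensus peaks, whose median width was 750 bp. ATAC-seq counts the cuts that a transposase makes in open DNA, so a higher count at a peak stands for more accessible chromatin. KO cells came from mice that were homozygous for a conditional Hp1g allele (Hp1g flox) and carried the Cd4-cre transgene, in which a Cre recombinase driven by Cd4 control sequence deletes the allele in developing T cells, and WT cells came from littermates with the same floxed alleles and no Cre. The lines were of mixed C57BL/6 and 129/Sv descent, and the mice were sex-matched and 6 to 12 weeks old. HP1γ loss, the Cre transgene and strain sequence that goes with either cannot be told apart at a single locus. Naive cells were taken from the spleen by negative selection (CD4+CD62L+CD44-/low) and profiled before any transfer. The conditions set beside them were Tconv, conventional T cells recovered from irradiated hosts with a bone marrow allograft, and Tconv that had been co-transferred with regulatory T cells (Treg), and, for naive cells, KO and WT of HP1α, in which a CMV-cre transgene had deleted the gene throughout the animal. The labels do not say whether replicates were separate animals, so p-values measure the spread between these libraries, which may be technical.

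HP1γ, encoded by Cbx3, is a chromodomain protein that binds histone H3 methylated at lysine 9, the mark laid down by SUV39H1, SETDB1 and G9a. It shares this binding with HP1α (Cbx5) and HP1β (Cbx1) and recruits further silencing proteins to heterochromatin, where repeats and genes of other lineages are kept closed, but it is also found on transcribed genes. Naive CD4 T cells hold compact chromatin that opens widely when the cells are activated.

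In short, most of the peaks called past the limit on size were more open in KO. A fit over 18 libraries called 95 higher, mostly far from protein-coding starts, and a fit over the 6 naive libraries called 94 of these and 930 more. Of the 930, 829 were peaks gained in WT Tconv over WT naive cells, mostly sparse ones. Peaks of that class were raised mainly in 2 of the 3 KO libraries.

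The KO libraries differed from each other. WT libraries held 70.5, 80.1 and 90.3 M (1e6) reads in peaks, and KO libraries 33.9, 32.4 and 82.4 M. KO replicate 3 was as deep as WT, and its log2 CPM (counts per 1e6 reads in peaks, here with TMM-scaled library sizes) correlated with those of the WT libraries at 0.986 to 0.988 across peaks, near the 0.989 to 0.992 between WT libraries, whereas KO replicate 1 reached 0.965 to 0.974. Peaks are not independent replicates. The main counts of the fit over the 6 naive libraries are therefore also given below without KO replicate 3, and some with it as the sole KO library.

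The cells carried the accessible chromatin of naive CD4 T cells. The peaks at the transcription start sites (TSS) of Cd3e, Ccr7, Lef1 and Tcf7, which encode a T cell receptor subunit, a homing receptor and 2 T cell transcription factors, had 22.5 ± 0.461, 24.5 ± 0.569, 26.4 ± 0.608 and 15.4 ± 0.622 CPM per kb (TMM-scaled, like the sums that follow) in WT (SD, n = 3) and 23.6 ± 1.91, 24.2 ± 1.43, 28.3 ± 2.04 and 17.4 ± 1.27 in KO (SD, n = 3). Summed over their markers, CD8 T cells had 306 to 325 CPM in WT and 297 to 330 in KO over 16 peaks of 3 genes, B cells 39.2 to 44.5 and 34.5 to 42.5 over 10 peaks of 4 of 6 genes, and myeloid cells 88.4 to 90.3 and 72.4 to 76.7 over 12 peaks of 3 of 6 genes. Effector or memory T cells had 126 to 130 CPM in WT and 116 to 128 in KO over 18 peaks of 6 genes, and regulatory T cells 262 to 277 and 291 to 327 over 16 peaks of 3 genes. NK cells had 1.14 to 1.76 and 1.83 to 3.23 CPM over 4 peaks of 2 of 3 genes, and erythroid cells 2.997 to 3.63 and 1.97 to 2.53 over 1 peak of 1 of 3 genes. Myeloid, erythroid, NK and regulatory T cell sums did not overlap between KO and WT, nor did that of naive CD4 T cells, at 2291 to 2516.4 CPM in KO and 1608.5 to 1707.3 in WT over 28 peaks of 9 genes, 5 of them in Cd4. Without the 2 called Cd4 peaks described below, left out after seeing the data, the naive CD4 T cell sums overlapped, at 1502.9 to 1706.5 CPM in KO and 1476.9 to 1564.1 in WT. Cd79a, Ms4a1, Lyz2, Csf1r, Fcgr3, Ncr1, Klf1 and Hba-a1 had no assigned peak. In bulk libraries, fewer cells of a type and less accessibility per cell cannot be told apart.

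Windows of 300 bases at the centres of 3 peaks are shown because the KO effect at them recurs below. The peak nearest to Gm49214 led a group of opened peaks on chromosome 15, that near Gm10388 a group of opened peaks on chromosome 6, and that near Gm64359 was the called peak without reads in KO. The sequences are those of GRCm39. Capitals mark a match to RUNX (TGTGGTT, either strand).
Gm49214 (chr15:31459021-31459320, plus strand): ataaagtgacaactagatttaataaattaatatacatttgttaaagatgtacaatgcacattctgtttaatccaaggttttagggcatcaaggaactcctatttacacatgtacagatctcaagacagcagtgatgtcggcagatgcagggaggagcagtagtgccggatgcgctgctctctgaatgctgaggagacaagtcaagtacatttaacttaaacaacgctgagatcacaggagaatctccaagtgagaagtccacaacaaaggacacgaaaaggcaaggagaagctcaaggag
Gm10388 (chr6:149162426-149162725, plus strand): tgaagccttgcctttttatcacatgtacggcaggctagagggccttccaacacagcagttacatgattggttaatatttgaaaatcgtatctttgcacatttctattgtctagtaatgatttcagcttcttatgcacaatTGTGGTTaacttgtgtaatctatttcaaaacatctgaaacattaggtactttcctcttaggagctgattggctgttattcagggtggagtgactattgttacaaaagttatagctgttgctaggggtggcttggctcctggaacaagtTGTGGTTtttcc
Gm64359 (chr3:82114606-82114905, plus strand): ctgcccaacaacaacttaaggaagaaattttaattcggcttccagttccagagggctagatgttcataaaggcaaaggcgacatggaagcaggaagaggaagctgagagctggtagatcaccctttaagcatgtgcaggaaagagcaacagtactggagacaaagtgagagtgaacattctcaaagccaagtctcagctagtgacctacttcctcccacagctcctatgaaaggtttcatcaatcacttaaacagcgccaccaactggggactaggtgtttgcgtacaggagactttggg
The Gm10388 window held 2 matches to RUNX, the motif of the RUNX transcription factors, and the windows of Gm49214 and Gm64359 held none. Over all peaks, 12.9% of such windows held a match, and of the 95 windows that were called higher 22.1%. A match is a description of the letters and not of binding.

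To ask which chromatin sites respond to the loss of HP1γ before any activation, KO was compared with WT with the quasi-likelihood test of edgeR over all 18 HP1γ libraries, and calls needed an adjusted p below 0.05 together with a change of more than 1 on the log2 scale in either direction. Of 71508 peaks tested 0.14% were called, 95 higher (0.133%) and 5 lower (0.00699%) in KO. The 18 libraries share 1 estimate of spread, with a biological coefficient of variation of 22.2%. The naive libraries were tighter, at 9.42%, and a fit of these 6 alone called 1074 of 67568 peaks (1.59%), 1024 higher (1.52%) and 50 lower (0.074%). It held 99 of the 100 calls of the larger fit, the exception being Gm66950 at 0.99. Without KO replicate 3 the 18-library fit made 56 calls, of which 47 were among the 100, and without WT replicate 3 it made 63. With the older (legacy) form of the quasi-likelihood fit, added after seeing the data, the 18 libraries gave 417 calls, of which 66 were among the 100. On counts simulated with a spread that follows abundance, the 18-library fit recovered fewer of the changed peaks than the legacy fit or the 6-library fit and made more false calls than either and than its adjusted p allows, so a share of the 100 calls may be false. With no limit on size 0.222% of peaks passed in the 18-library fit, 0.196% higher and 0.0266% lower, and 7.27% in the 6-library fit, 4.21% higher and 3.05% lower. In the plot of fold change against abundance, the calls of the 6-library fit lie mostly at low counts and above 0.

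**Figure D1:**
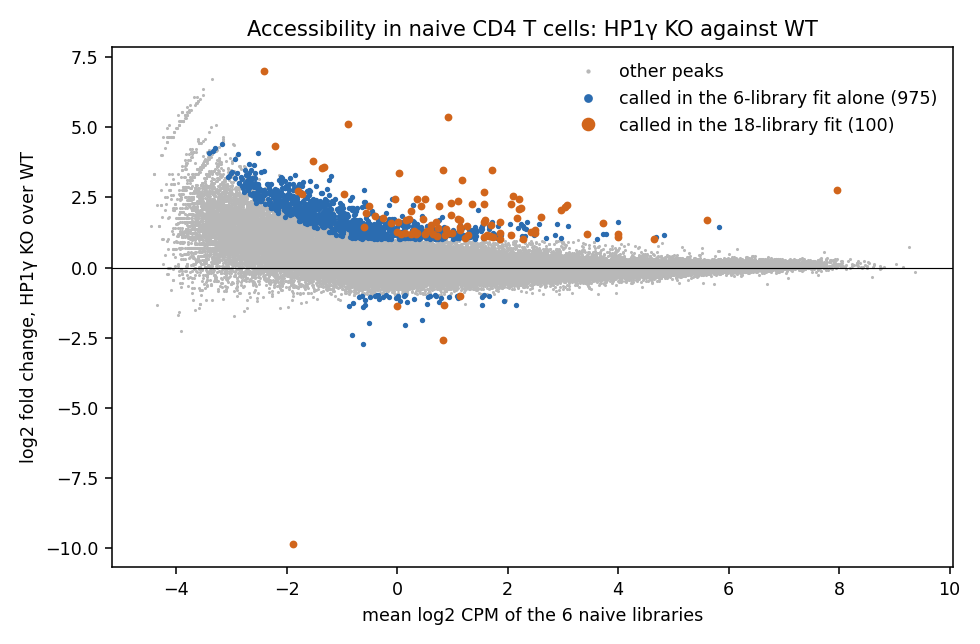
Each point is 1 peak, with the mean log2 CPM of the 6 naive libraries on the horizontal axis and the log2 fold change of HP1γ KO over WT from the 18-library fit on the vertical axis. Orange points are the 100 peaks called in that fit and blue points those called in the fit of the 6 naive libraries alone, of which nearly all lie above 0 and below a log2 CPM of 2.

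The call with the smallest p was in Cd4, which encodes the co-receptor of helper T cells. Its first peak (chromosome 6, 124856622 to 124866115) covers the start of the gene and had 6715, 7588 and 9061 reads in WT and 21811, 21271 and 52621 in KO. Per 1e6 reads in peaks all 3 KO libraries were alike and far above WT, with 646 ± 8.94 CPM against 96.8 ± 3.08 (SD, n = 3), and in Tconv the levels were 656 ± 62.0 against 106 ± 4.70 CPM. The log2 fold change in naive cells was 2.77 ± 0.10 (SE) with an adjusted p of 1.4e-11.

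A second peak 2071 bases upstream of the nearest Cd4 TSS (chromosome 6, 124876829 to 124879558) had 1799, 2145 and 2667 reads in WT and 3068, 2940 and 6772 in KO, a log2 fold change of 1.71 ± 0.14 (SE) with an adjusted p of 5.9e-06. The 3 Cd4 peaks that lie between them had log2 fold changes of -0.31, -0.56 and 0.11, and none of them passed the test. Peaks of the neighbouring genes were not called either, with -0.07, 0.16 and 0.18 at the 3 peaks of Lag3, which encodes an inhibitory receptor that binds MHC class II, and -0.11 and 0.16 at the TSS of Gpr162 and of Ptms. In naive HP1α KO cells the 2 Cd4 peaks had -0.01 and 0.02, and the difference between the 2 knockouts was called at both (2.72 with an adjusted p of 9.1e-10, and 1.63 with 1.4e-05). KO mice alone carry the Cd4-cre transgene, so reads of the endogenous Cd4 gene and of Cd4 sequence in the transgene cannot be told apart.

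The other higher calls had a median log2 fold change near 1.7, and their largest values were at peaks that were almost closed in WT. A peak near Cfap53, a gene of motile cilia, (chromosome 18, 74500261 to 74501970) had 28, 16 and 24 reads in WT and 361, 370 and 978 in KO, or 0.288 ± 0.101 and 11.3 ± 0.613 CPM (SD, n = 3). Its KO libraries were alike, every one of them above every WT library, and the log2 fold change was 5.36 ± 0.46 (SE, adjusted p = 6.5e-06). A peak 961 bases from the TSS of Gh, the growth hormone gene of the pituitary, (chromosome 11, 106191091 to 106191730) had 9, 4 and 5 reads in WT and 95, 77 and 219 in KO. Here too KO and WT were apart, at a log2 fold change of 5.13 ± 0.50 (SE, adjusted p = 9.6e-06).

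A peak between genes near D730003K21Rik (chromosome 9, 116136251 to 116136530) had 14, 32 and 29 reads in WT and 110, 92 and 264 in KO, a log2 fold change of 3.36 ± 0.24 (SE, adjusted p = 4.6e-07). The peak whose sequence is shown above as Gm49214 (chromosome 15, 31458311 to 31460030), which lies in an exon within the bounds of Marchf6, had 69, 68 and 101 reads in WT and 293, 395 and 918 in KO. Its log2 fold change was 3.48 ± 0.21 (SE, adjusted p = 4.1e-08). In each of these the lowest KO library stood above the highest WT library, as the plot by library shows.

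**Figure D2:**
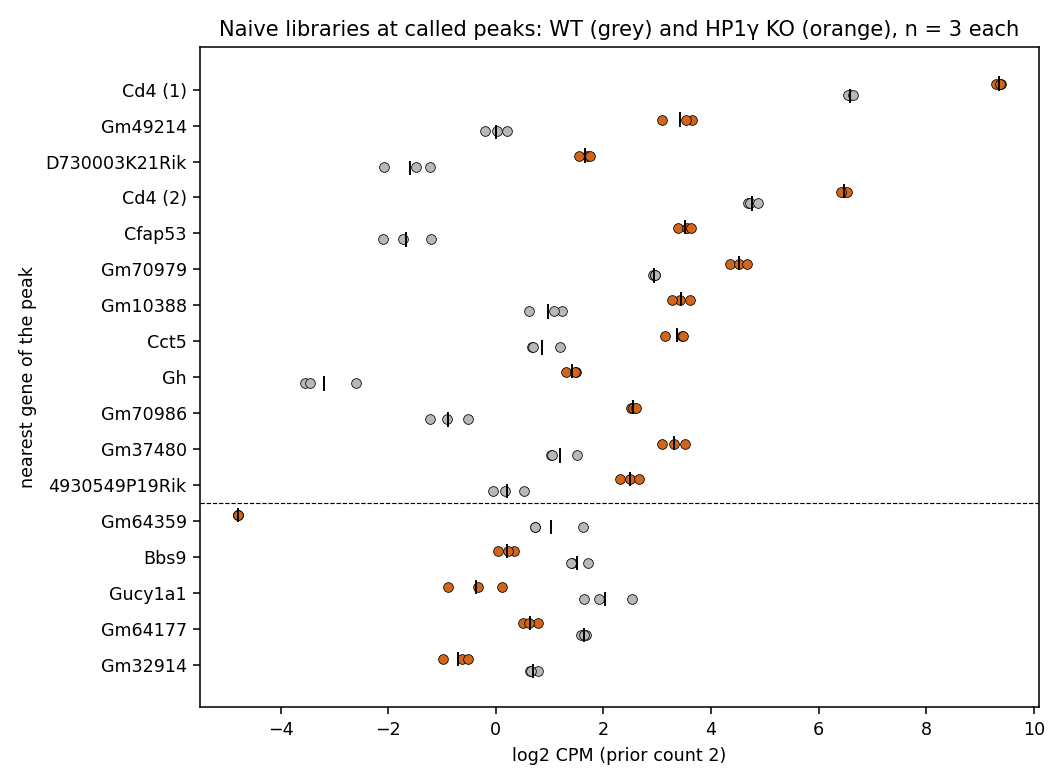
Each row is a called peak named by its nearest gene, with the log2 CPM of each naive library on the horizontal axis, WT in grey and HP1γ KO in orange (n = 3 each), and short bars at the group means. Above the dashed line are 12 of the higher calls with the smallest p and below it the 5 lower calls, and no KO library overlaps a WT library in any row.

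Most of the called peaks lay away from protein-coding starts. All 95 had every KO library above every WT library, as 15.4% of all peaks did (27.3% in either direction). Of the 95, 76, 93 and 92 were more than 2-fold above the WT mean in KO replicates 1, 2 and 3, with median log2 differences of 1.51, 1.70 and 1.70. The test favours peaks whose KO libraries stand apart from WT and lie close to each other, so both are largely set by the choice. Of the same peaks 73 (76.8%) were over 10 kb from the nearest TSS of a protein-coding gene, against 46.3% of all peaks, and 36.8% lay between genes against 17.0%. Their median GC content of 46.6% was near the 48.0% of all peaks. With naive libraries thinned to 32.41 M reads 44 peaks were called in all.

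Of the 100 calls, 36 lay in 9 regions with at least 3 calls no more than 250 kb apart, and 52 stood alone, while of the 1074 calls of the 6-library fit 380 lay in 83 regions and 496 stood alone. All calls inside the 9 regions were higher in KO. Strain sequence at these regions was not tested. The longest run was on chromosome 15 from 31315911 to 31586050, with 8 of 24 peaks called, in and around Ankrd33b, Gm49214, Marchf6, an E3 ubiquitin ligase of the endoplasmic reticulum, and Cct5, a subunit of the cytosolic chaperonin. Their median log2 fold change was 2.51, with median differences from WT of 2.34, 2.55 and 2.49 in KO replicates 1, 2 and 3, and the peaks in the region that were not called had a median of 0.61. The peak nearest to Cct5 (chromosome 15, 31585261 to 31586050), which lies in an exon within Cmbl, had 158, 127 and 142 reads in WT and 303, 348 and 887 in KO. A peak in Marchf6 (chromosome 15, 31502431 to 31502910) had 9, 2 and 8 reads in WT against 36, 31 and 98.

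A region on chromosome 1 from 170733801 to 170778690 had 5 of 6 peaks called, with a median of 3.13. It lies beside Fcrlb, Fcrla and Fcgr2b, genes of the Fc receptor cluster that are chiefly used by B and myeloid cells, and the called peaks were nearest to the non-coding genes Gm70989, Gm70986 and Gm37030. A peak in an intron of Gm70986 (170777511 to 170778690) had 35, 32 and 60 reads in WT and 195, 184 and 478 in KO (log2 fold change 3.48 ± 0.32, SE, adjusted p = 9.6e-06). Per 1e6 reads in peaks this was 0.520 ± 0.134 CPM in WT and 5.75 ± 0.0640 in KO (SD, n = 3), with the 3 KO libraries alike. Fcgr3 of this cluster had no assigned peak.

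Among the regions, 2 lay in vomeronasal receptor clusters on chromosome 17, between 18938431 and 19180190 with 4 of 8 peaks called and between 19650391 and 19665950 with 3 of 3. These clusters hold Vmn2r pheromone receptor genes and pseudogenes, which are silent outside the vomeronasal organ. In the second, a peak in an intron of 4930549P19Rik (19650391 to 19650880) had 98, 76 and 99 reads in WT and 194, 200 and 392 in KO, and a peak in Vmn2r-ps121 (19664521 to 19665950) had 302, 324 and 291 against 489, 576 and 1215. Both passed the test, at log2 fold changes of 2.27 ± 0.22 and 2.05 ± 0.22 (SE).

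Chromosome 6 from 149002611 to 149250030, with 3 of 18 peaks called, held Dennd5b, Resf1, a repressor of endogenous retroviruses in embryonic stem cells, and the peak of Gm10388 shown above (149161941 to 149163210), with 162, 169 and 135 reads in WT and 368, 385 and 770 in KO (log2 fold change 2.45 ± 0.22, SE). The region of the Cfap53 peak (chromosome 18, 74500261 to 74526920) had 3 of 4 peaks called, at a median of 5.36. The remaining regions had medians of 1.60 near Steap3, a ferrireductase gene, on chromosome 1 (3 of 3 peaks), 1.75 on chromosome 14, where the nearest protein-coding gene is Diaph3 (4 of 5), and 2.28 on chromosome 17 from 10140281 to 10148990 (3 of 3). In the 6-library fit 83 such regions held 380 of the 1074 calls and 496 calls stood alone.

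Whether the same peaks differed between KO and WT after transfer was read from the KO and WT libraries of Tconv and of Tconv with Treg, which the naive contrast does not use, although all were fitted with 1 estimate of spread. In Tconv 34 of the 95 were called higher in KO, where 1.69% of all peaks were (3.35% in either direction), with Treg 28, where 6.48% were, and 25 in both. The medians were 1.13 and 0.56. None of the 95 was called lower in Tconv or with Treg, where 1.66% and 5.38% of all peaks were. In naive HP1α KO cells 1 of the 95 was called higher, against a background of 0.0116% (0.0231% in either direction), and the median was 0.02. The effect differed between the HP1γ and HP1α knockouts, by the test of the difference, at 31 of the 95, against 0.0824% of all peaks (0.0694% with the larger value in HP1γ KO). The 95 were chosen by the naive HP1γ contrast, so this count is a description.

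The regions differed in these values. On chromosome 15, 6 of the 8 called peaks were also called in Tconv and 4 with Treg, and the Gm49214 peak had 9.36 ± 0.754 CPM in KO and 1.11 ± 0.242 in WT Tconv (SD, n = 3), close to the naive values of 10.7 ± 1.82 and 0.982 ± 0.135. All 3 Cfap53 region calls were called in both conditions, and the first of them had 27.4 ± 0.601 CPM in KO Tconv against 1.95 ± 0.529 in WT. The chromosome 1 region had a median of 0.33 in Tconv and -0.19 with Treg and 0 of 5 called in either. Of its 5 called peaks 4 were of the class that opens in WT Tconv, described below, and the Gm70986 peak had 2.39 ± 0.383 CPM in WT and 3.14 ± 1.08 in KO Tconv. Since naive values chose the peak, the larger effect in naive cells than in Tconv is partly set by that choice, and by the test of the difference it was -3.15 on the log2 scale (adjusted p = 0.026). This difference lost its call when any 1 of 10 single libraries was left out.

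**Figure D3:**
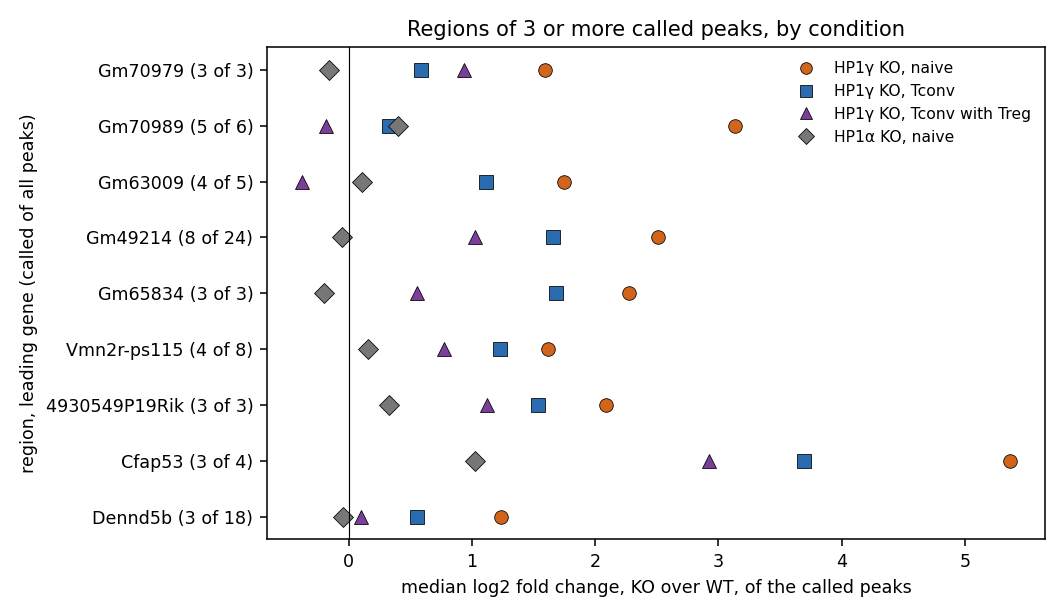
Each row is 1 of the 9 regions, named by a gene in it and with the number of called peaks and of all peaks, and the horizontal axis is the median log2 fold change of KO over WT over its called peaks. Orange circles are naive HP1γ KO, which chose the peaks, blue squares Tconv, purple triangles Tconv with Treg and grey diamonds naive HP1α KO. The region of Gm70989 is at 3.13 in naive cells and near 0 in both transferred conditions, whereas that of Cfap53 stays above 2 in all 3.

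Of the peaks tested, 17.1% were lost in WT Tconv against WT naive cells of the HP1α line. The 5 lower calls all lay in such peaks. The clearest was a peak between genes near Gm64359 (chromosome 3, 82114601 to 82114910), which had 114, 247 and 147 reads in WT and 0 in each KO library. With 0 of 148.64 M KO reads, a floor of 3 reads over the group puts it at least 104.5-fold lower than the 2.11 ± 0.844 CPM of WT (SD, n = 3). The naive HP1α libraries, WT and KO, all held 135 to 362 reads there. In Tconv the peak was nearly closed in both genotypes, with 24 reads in KO and 23 in WT over 3 libraries each.

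On the same chromosome, a peak in an intron of Gucy1a1, a subunit of the nitric oxide receptor guanylate cyclase, (chromosome 3, 82048151 to 82049000) had 262, 471 and 277 reads in WT and 36, 24 and 40 in KO. KO was lower in every library, at a log2 fold change of -2.60 ± 0.39 (SE, adjusted p = 0.0037), and the call was lost without KO replicate 3. The TSS peak of the same gene (82052311 to 82053410), looked up after its values were seen, had 284, 466 and 335 reads against 90, 55 and 110, at -1.35 ± 0.33 (SE, adjusted p = 0.13, and 0.00082 in the 6-library fit). In Tconv both were at 0.04.

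The other 3 were an intron of Bbs9, a cilium transport gene (-1.33 ± 0.21, SE, adjusted p = 0.0031), Gm64177 within Zfhx3 (-1.02 ± 0.20, adjusted p = 0.032) and Gm32914 (-1.36 ± 0.27, adjusted p = 0.039). The Bbs9 peak (chromosome 9, 22572171 to 22572490) had 229, 216 and 235 reads in WT and 34, 39 and 90 in KO, which is 2.85 ± 0.350 and 1.10 ± 0.0998 CPM (SD, n = 3). Its call was lost without KO replicate 3, and the calls of Gm64177 and Gm32914 were lost without any 1 of the 6 naive libraries, while all 5 were called in the 6-library fit.

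The peaks added by the 6-library fit were mostly sparse ones gained in WT Tconv. The classes were set from libraries that take no part in the contrast, WT Tconv against WT naive cells of the HP1α line. Of the peaks tested 17827 were gained (25.3%). Those Tconv libraries held 74.4, 19.7 and 6.20 M reads in peaks. On unplaced contigs they had 0.415%, 0.975% and 1.33% of reads, and the WT naive libraries 0.279%, 0.225% and 0.229%. Activation, transfer and library background cannot be told apart in these classes. Of the 1024 peaks called higher, 853 (83.3%) were of this gained class, and their median differences from WT were 2.17 and 2.00 in KO replicates 1 and 2 and 1.08 in replicate 3. The 171 others had 1.32, 1.41 and 1.1975. Over the whole gained class the median log2 fold change was 0.48, with differences from the WT mean of 0.67, 0.61 and 0.16 in the KO libraries and of 0.18, -0.07 and -0.09 in the WT libraries. KO replicate 3 was below WT replicate 1.

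The share of reads in gained-class peaks moved in the same way, at 2.78%, 2.64% and 2.55% in WT and 3.28%, 3.19% and 2.58% in KO. Sparse peaks as a whole did so too. In the quintile of peaks with the lowest WT level the median was 0.83 (KO libraries 1.11, 0.95 and 0.32), a value that the choice of the quintile by the same WT libraries itself pushes above 0, and this quintile took 0.356%, 0.276% and 0.271% of WT reads and 0.692%, 0.594% and 0.358% of KO reads. In the highest quintile the median was 0.01. With loess offsets on abundance in the 6-library fit, the medians were 0.13 for the gained class and 0.15 for the lowest quintile, against 0.35 and 0.65 without, whereas the same offsets in the 18-library fit left 0.45 and 0.70, against 0.48 and 0.83. Without KO replicate 3 the 6-library fit called 4156 peaks, and with KO replicate 3 as the sole KO library 390, of which 259 were higher and 129 of these of the gained class. That lone library is assumed to vary like the WT group, and counts from fits with different numbers of KO libraries cannot be compared directly. The gained-class median was then 0.10. Depth moved with these values, and its part in them beyond the settings given was not tested. Thinned to the shallowest naive library, the 6-library fit called 971 peaks higher.

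**Figure D4:**
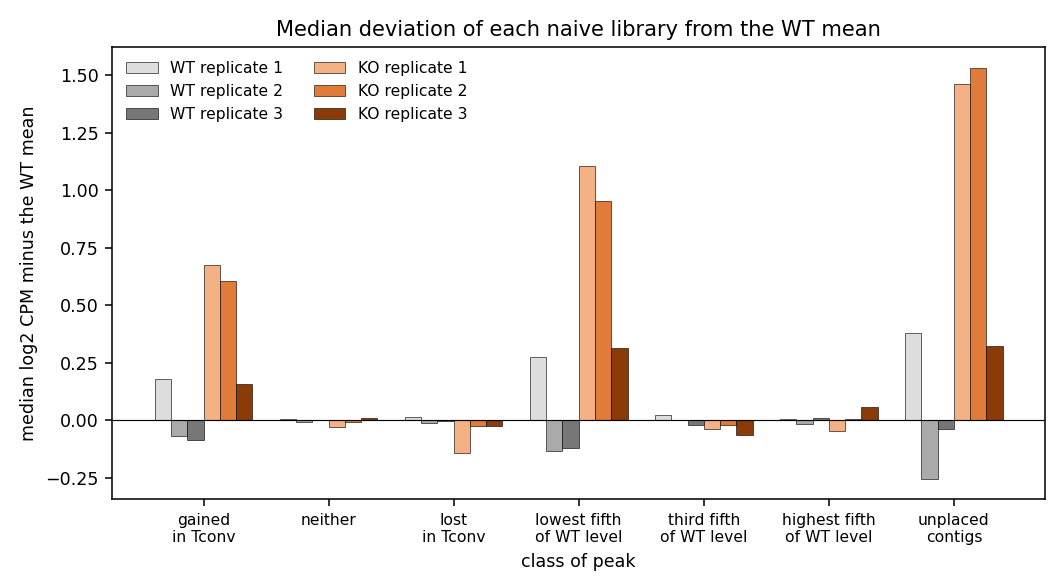
Bars are the median difference in log2 CPM from the WT mean, for each naive library, over peaks gained, lost or neither in WT Tconv, over quintiles of the WT level, and over unplaced contigs. WT libraries are grey and HP1γ KO libraries orange to brown (1 bar per library, no error bars). In the gained class, the lowest quintile and the unplaced contigs KO replicates 1 and 2 stand far above KO replicate 3, which is close to WT replicate 1.

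Among genes of the CD4 and CD8 lineages, 2 of 113 peaks were called in the 18-library fit, both of them the Cd4 peaks above, and the median was 0.10. Of 101 peaks of effector and memory genes 0 were called in the 18-library fit and 5 higher in the 6-library fit, where 0.133% and 1.52% of all peaks were called higher. Without KO replicate 3 the 6-library fit called 16 higher (5.87% of all peaks), and with it as the sole KO library 0 (0.379%). The median was 0.27 (KO libraries 0.30, 0.28 and 0.05), against 0.03 over all peaks. Of the 101 peaks 69 were of the gained class, whose median was 0.48 and of which the 6-library fit called 4.80% in either direction. The 5 were 1 peak each of Cxcr3, a chemokine receptor of Th1 cells, Zeb2, a transcription factor of terminal effectors, and Ahnak, and 2 of Ccl5, a chemokine of effector T cells. The Cxcr3 peak (chromosome X, 100774101 to 100776860) had 9, 12 and 16 reads in WT and 47, 15 and 32 in KO, with a log2 fold change of 2.07 ± 0.58 (SE, adjusted p = 0.22, and 0.021 in the 6-library fit). In the same list 4 peaks were lower in the 6-library fit at any size, where 3.05% of all peaks were, and among these was the TSS of Cd44 (-0.34, adjusted p = 0.0089), the marker by which naive cells are sorted. The TSS peak of Il2rb was lower too (-0.26, adjusted p = 0.022, 6-library fit). At the TSS of Cxcr3, Nkg7, Ccl5 and Tbx21, the other effector or memory markers, the 18-library fit had 0.52, 0.41, 0.31 and 0.08. None of them passed in either fit. The sum of these markers given above was no higher in KO. Over its 18 peaks the median was 0.43, and the 6-library fit called 3 higher.

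T helper lineage genes had a median of 0.18 over 99 peaks, with 0 calls in the 18-library fit. Of these peaks 64 were of the gained class. Without KO replicate 3 the 6-library fit called 16 higher (17.0% of those tested, against 5.87% of all peaks). With all 6 libraries it called 5 higher, where 1.52% of all peaks were. These were at Il17a, Ccr6 and Rora of the Th17 lineage and at Il4 and Il13, the Th2 cytokines. Reads were few, 30, 12 and 16 in WT and 54, 39 and 26 in KO at the Il4 TSS (chromosome 11, 53507431 to 53509830), where KO replicate 3 was within the WT range.

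Exhaustion and anergy genes, which include the inhibitory receptors of T cells, had a median of 0.24 over 165 peaks, with 0.24, 0.38 and 0.19 in the KO libraries. Groups did not overlap at 47 peaks that were higher in KO and 5 that were lower, where all peaks gave 15.4% and 11.9%. A single peak was called in the 18-library fit, 25 kb from Btla, an inhibitory receptor of the CD28 family (chromosome 16, 45095991 to 45096490), with 81, 47 and 90 reads in WT and 110, 148 and 403 in KO (0.911 ± 0.291 and 4.24 ± 0.871 CPM, SD, n = 3). Its log2 fold change was 2.32 ± 0.25 (SE, adjusted p = 9.2e-05), and in Tconv it was 0.34 and with Treg 0.68. The 6-library fit called 8 of the 165 higher, against 1.52% of all peaks, the other 7 at Nr4a3, Tox and Il10. Without KO replicate 3 it called 16 higher (9.94% of those tested, against 5.87% of all peaks).

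An intron peak of Nr4a3, a transcription factor induced by T cell receptor signals (chromosome 4, 48069051 to 48070510), had 156, 194 and 234 reads in WT and 156, 195 and 366 in KO, at 1.04 ± 0.23 (SE, adjusted p = 0.072, and 0.00021 in the 6-library fit). Tox, a transcription factor of exhausted T cells, had 44 peaks, 37 of them above 0, 16 with KO above every WT library and 0 with KO below, where 54.8% of all peaks were above 0 and 15.4% and 11.9% did not overlap, with medians of 0.22, 0.43 and 0.23 in the KO libraries. Il10, an anti-inflammatory cytokine, had 14 of 15 peaks above 0, with medians of 1.27, 1.08 and 0.17, so the deep KO library was well below the other two. Pdcd1, which encodes PD-1, had 0.87, 0.58 and 0.04 over 4 peaks, and none of them was called. At Havcr2, Tigit and Ctla4 none was called either.

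**Figure D5:**
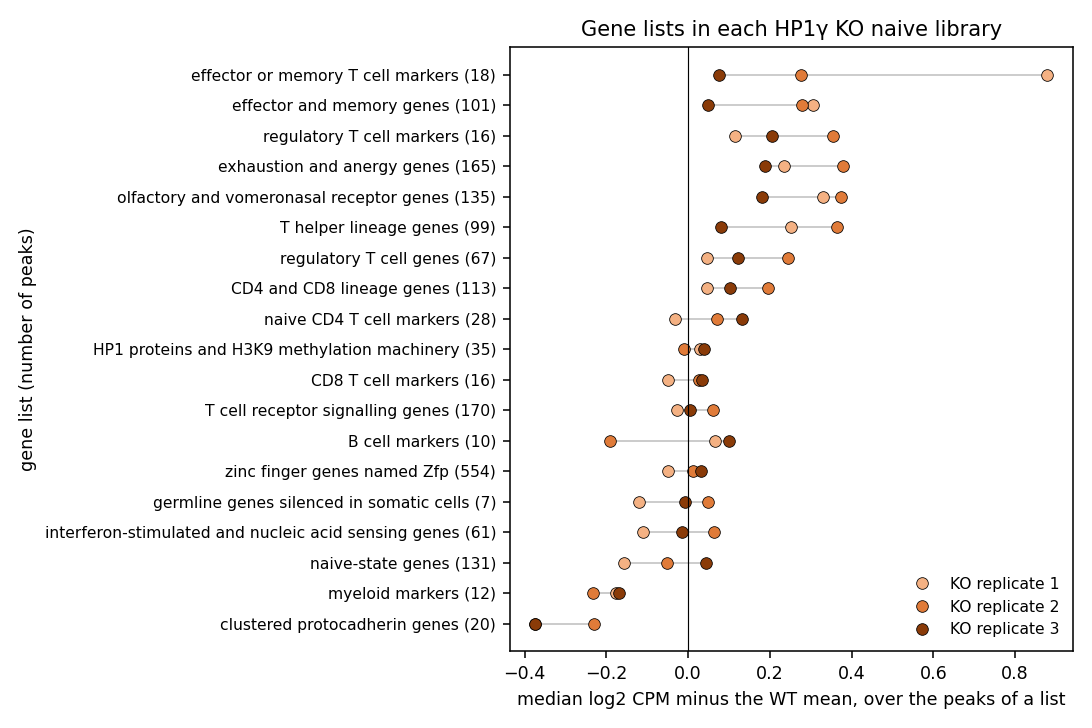
Each row is a gene list or marker list with its number of peaks, and the points are the median difference in log2 CPM from the WT mean in each of the 3 HP1γ KO naive libraries, with no error bars. Exhaustion and anergy genes lie between 0.19 and 0.38 in all 3, effector and memory genes drop to 0.05 in KO replicate 3, and clustered protocadherin genes lie below -0.2 in all 3.

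Genes of regulatory T cells had a median of 0.10 over 67 peaks and 0 calls in the 18-library fit. The 6-library fit called 1 higher, near the 1.52% of all peaks, at Il1rl1, the interleukin 33 receptor. At any size 10 were higher and 0 lower, where 4.21% and 3.05% of all peaks were. Nrp1, which encodes the surface receptor neuropilin 1, had 9 of 9 peaks above 0 and 8 with KO above every WT library, where 54.8% and 15.4% of all peaks were, with medians of 0.50, 0.62 and 0.48 in the KO libraries. Ikzf2, the transcription factor Helios, had all 5 peaks above 0, and its TSS peak (chromosome 1, 69724591) had 3678, 3674 and 3894 reads in WT and 2114, 2356 and 5765 in KO, at 0.57 ± 0.14 (SE, adjusted p = 0.15, and 9.8e-05 in the 6-library fit). Its KO level of 16.9 ± 1.53 CPM per kb stood above 11.6 ± 1.09 in WT (SD, n = 3). Foxp3, which defines regulatory T cells, had 22.3 ± 1.41 CPM per kb in KO and 22.9 ± 0.505 in WT at its strongest TSS peak. At a second Foxp3 start (chromosome X, 7452521 to 7453560) every KO library was below every WT library, with 389, 406 and 492 reads in WT and 143, 157 and 375 in KO, at -0.20 ± 0.13 (SE, adjusted p = 0.68). Il2ra, an interleukin 2 receptor chain, had 18.1 ± 1.77 CPM per kb in KO and 17.3 ± 0.932 in WT at its TSS (SD, n = 3).

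Genes of the naive state had 0 calls in either fit over 131 peaks and a median of -0.05. In the 6-library fit 8 were lower and 3 higher at any size, where 3.05% and 4.21% of all peaks were. The 3 higher were 2 peaks of Satb1 and the TSS peak of Tcf7. The latter was at 0.20 in the 18-library fit (adjusted p = 0.58), and its adjusted p in the 6-library fit was 0.022. Among the lower were the TSS peaks of Dapl1 and of Klf2, a factor of quiescence and homing. Dapl1 had 944, 1213 and 1256 reads in WT and 291, 289 and 822 in KO (-0.58, adjusted p = 0.00091, 6-library fit). Klf2 was at -0.26 (adjusted p = 0.018, 6-library fit). T cell receptor signalling genes had a median of 0.01 over 170 peaks and interferon-stimulated and nucleic acid sensing genes -0.04 over 61, with 0 calls in the 18-library fit. In the 6-library fit 2 peaks of Ifih1, the RNA sensor MDA5, were called higher, where 1.52% of all peaks were, and the TSS peaks of Oas2 and Usp18 were lower at any size (-0.59 and -0.45, adjusted p = 0.025 and 0.013), in all 4 higher and 5 lower.

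The silencing machinery had no called peak. Of 35 peaks of 17 genes for HP1 proteins and H3K9 methylation 0 were called in either fit and the median was 0.02, with KO libraries at 0.03, -0.01 and 0.04. The TSS peak of Cbx1 had -0.07 ± 0.14 and the peak at a Cbx5 TSS -0.17 ± 0.12 (SE). The peak over the Cbx3 start is shared with Hnrnpa2b1, and the deleted sequence was not checked by it. Suv39h1 had 0.03, Trim28 -0.10 over 2 peaks and Setdb1 0.36 over 2.

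Gene families with members that heterochromatin keeps silent had medians of differing sign. Olfactory and vomeronasal receptor genes had 4 higher calls over 135 peaks, where 0.133% of all peaks were called higher, at Vmn2r-ps121, Vmn2r-ps115 and Vmn2r-ps33. The 6-library fit called 14 higher (11.7% of those tested, against 1.52% of all peaks), and 28 without KO replicate 3 (22.0%, against 5.87%). They had a median of 0.24 with 0.33, 0.38 and 0.18 in the KO libraries, and 43 peaks had KO above every WT library and 7 below, where 15.4% and 11.9% of all peaks did. Zinc finger genes named Zfp, many of which pair with TRIM28 to silence retroelements, had a median of 0.00 over 554 peaks and 1 call, in an exon of Zfp1001 (chromosome 2, 150167281 to 150167630; 1.19 ± 0.24, SE, adjusted p = 0.025). The 6-library fit called 14 higher (2.58% of those tested, against 1.52% of all peaks), and 33 without KO replicate 3 (6.01%, against 5.87%). Of the 554 peaks 56 had KO above every WT library and 80 below, where 15.4% and 11.9% of all peaks did. At the TSS of Zfp386 and of Zfp937 the change was smaller than the fold threshold but passed the test, up by 0.41 ± 0.07 and at -0.93 ± 0.18 (SE, adjusted p = 0.016 and 0.040). Germline genes silenced in somatic cells had peaks at 4 of 20 genes, with 0 calls and a median of -0.01.

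Clustered protocadherin genes, adhesion genes of neurons that lie in tandem on chromosome 18, had values below 0. Their median was -0.28 over 20 peaks, with -0.37, -0.23 and -0.37 in the KO libraries, 10 peaks had every KO library below every WT library and 1 above, where 11.9% and 15.4% of all peaks did. None was called, and 5 were lower at any size in the 6-library fit, where 3.05% of all peaks were. The TSS of Pcdhgb4 had 241, 263 and 267 reads in WT and 63, 61 and 146 in KO, at -0.78 ± 0.21 (SE, adjusted p = 0.20, and 0.0034 in the 6-library fit). In naive HP1α KO cells the list had a median of -0.64, and in HP1γ Tconv of 0.23.

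The KO effect differed by test at 10 peaks (0.014%) between Tconv and naive cells, higher after transfer at 5 and lower at 5, and at 335 (0.468%) between Tconv with Treg and naive cells, higher at 156 and lower at 179. Leaving out 1 library gave 1 to 157 and 0 to 1965, and with depth as a covariate the second count was 19. At the TSS of the non-coding gene Gm60673 (chromosome 12, 29340751 to 29341650), naive cells had 14.6 ± 1.69 CPM in WT and 11.5 ± 1.63 in KO (SD, n = 3), whereas Tconv had 1.78 ± 0.643 and 7.46 ± 2.25. WT and KO were thus apart in Tconv, and the difference in log2 fold change was 2.32 (adjusted p = 0.026). It lost its call when any 1 of 8 single libraries was left out.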

How the data were processed

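ATAC-seq reads were trimmed with Trim Galore 0.6.7, aligned to GRCm39 with BWA and counted over merged HMMRATAC peaks with featureCounts 2.0.3, per the labels and the study's methods. The authors deposited raw counts per peak, with no normalization. Of 71512 intervals, 3 without width were left out, and 71509 were assigned to the nearest TSS of GENCODE. Groups and replicate numbers came from the labels. KO was compared with WT by the quasi-likelihood test of edgeR 4.0.16 (filterByExpr, TMM normalization, Benjamini-Hochberg adjustment) over the 18 HP1γ libraries, and over the 6 naive libraries alone. All adjusted p-values are edgeR's. Log2 CPM (prior count 2), CPM per kb and marker sums used TMM-scaled library sizes, and the CPM of single peaks given beside reads used all reads in peaks. Depth was 32.4 to 90.3 M reads in peaks in the 6 naive HP1γ libraries. The shallowest of the 18 HP1γ libraries, of WT Tconv with Treg, had 19.4 M. All 36 libraries ran from 1.49 to 96.8 M. DESeq2 1.42.0, limma 3.58.1, other scalings, a replicate block and leaving out each library were tried. Scripts were tested on simulated counts. Peaks were named by rule: every lower call, the 20 higher calls with the smallest p, the Cd4 neighbourhood, Cbx3, the leading peaks of each gene list and of each test of a difference. Members and lists were chosen with earlier results of these data known. Same-numbered naive KO and WT libraries had deviations correlated at 0.264, -0.067 and 0.19, so the numbers were not taken as pairs. A few peaks and 1 sequence that the rule names are not reported here.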

Additional observations from a re-analysis of the deposited data

Results flagged for a closer look

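The tests of a difference called 10 peaks at which HP1γ loss acted differently in Tconv and in naive cells, 335 for Tconv with Treg against naive cells, and 57 between HP1γ and HP1α loss in naive cells. The values below are differences in log2 fold change, and the peaks given are among those with the smallest p in each direction.

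After transfer the KO effect was larger than in naive cells at Gm60673 (2.32 and 2.33), Gm52792 (1.63 in Tconv), Gm15560 (1.5 in Tconv), Gm64092 (2.12 with Treg) and Pou2af1, which encodes a B cell coactivator (2.02 with Treg). It was smaller in Tconv at Gm37030 (-5.57), Gm70986 (-3.15) and Gm70989 (-2.06). Gm28960 (-0.87) passed the adjusted p but not the limit on size, and is not among the 10. Of 24 settings, Gm52792 lost its Tconv call in 9, Gm70989 in 12 and Gm15560 and Gm37030 in 13 each. With Treg the KO effect was smaller than in naive cells at D730003K21Rik (-3.98), at both Gm70986 peaks (-3.67 each) and at Gm70989 (-2.45). Gm37030, Gm70986 and Gm70989 are neighbours in 1 region of chromosome 1.

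The difference, HP1γ minus HP1α, was above 0 at Amd-ps6 (3.30), at Gm49214 (3.28) and at both Cd4 peaks (2.72 and 1.63), where transgene and endogenous reads cannot be told apart, and below 0 at Gm54974 (-2.48) and 1700030C10Rik (-2.24). The difference was -1.33 at Chd7, a chromatin remodeller, where HP1γ KO had -0.94 and HP1α KO 0.33, and -10.0 at Gm64359, a fitted value that depends on the prior count because the KO libraries held 0 reads. Of 23 settings, Chd7 lost its call in 8, among them depth as a covariate, Gm64359 in 5 and 1700030C10Rik in 3.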

How the results depend on the processing

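The 100 naive calls became 2340 with DESeq2, 1441 with limma-voom, 1074 with the 6 naive libraries, 321 with the 12 naive libraries of both lines, 417 with the legacy fit, 181 with loess offsets on abundance, 44 with thinned reads and 59 with KO replicate 3 as the sole KO library. Leaving out 1 library gave 56 to 85, with 56 without KO replicate 3 and 63 without WT replicate 3. The 1074 calls of the 6-library fit ranged from 375 (without WT replicate 2) to 4156 (without KO replicate 3), and KO replicate 3 alone, assumed to vary like WT, gave 390.

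The 10 differences between Tconv and naive cells became 1382 with DESeq2, 1394 with limma-voom and 18 with 12 libraries, and 1 to 157 without 1 library. The 335 with Treg became 3673, 3947 and 1067, 600 with loess offsets, 1295 with the legacy fit, 19 with depth as a covariate, and 0 to 1965 without 1 library, with 0 without WT replicate 2 of either condition (edgeR, 9377 with Treg and 10512 naive at an unadjusted p under 0.05). The 57 between HP1γ and HP1α became 438 with DESeq2, 2059 with limma-voom, 31 with the depth covariate and 17 to 284 without 1 library.

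With a replicate block the counts were 280 in naive cells, 632, 4481 and 1403 for the 3 differences, and with block and GC offsets 290, 696, 3899 and 1396. The numbers do not pair the samples, and not every library correlated best with its own number. Causes of these shifts were not tested. Of the named peaks, no called direction reversed. List medians near 0 (HP1 and H3K9, T cell receptor, Zfp, germline, interferon and naive-state genes) changed sign under some settings, and those of exhaustion, effector, T helper, olfactory and protocadherin genes did not.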

Other observations

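Peaks on unplaced contigs, which hold much repeated sequence, were mostly higher in KO. Of 99 such peaks 90 were above 0, with a median log2 fold change of 1.06 (0.23 with log2 reads in peaks as a covariate), and 0 were called in the 18-library fit and 33 in the 6-library fit, where 0.14% and 1.59% of all peaks were. Without KO replicate 3 the 6-library fit called 61 of them higher (61.6%, against 5.87% of all peaks). Their medians by library were 1.46, 1.53 and 0.32 in KO and 0.38, -0.25 and -0.04 in WT. Yet their summed share of reads was 0.309%, 0.264% and 0.157% in KO and 0.210%, 0.190% and 0.195% in WT, so KO replicate 3 had the lowest share of all 6. In Tconv the median was 0.34 and with Treg -1.29.

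A cluster of zinc finger genes on chromosome 4 (146417231 to 147435430), with Zfp978, Zfp981, Zfp988 and Zfp992, was picked out after its values were seen. All 22 of its peaks were above 0, with a median of 1.48. The 6-library fit called 12 of them, where 1.59% of all peaks were called. Without KO replicate 3 all 22 were called higher, where 5.87% of all peaks were. With Treg the median was -1.51 and all 22 were below 0. The median was 2.44 and 1.91 in KO replicates 1 and 2 and 0.16 in replicate 3, below the 0.80 of WT replicate 1. Zinc finger genes of such clusters resemble each other in sequence, and how reads were divided between them was not tested.

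Among motif matches in 300-base windows, NFAT (TGGAAAA, either strand) was found in 14.4% of the 853 gained-class peaks that the 6-library fit called higher, in 8.29% of the whole gained class and in 6.76% of all peaks. AP-1 (TGACTCA) was found in 12.9%, 18.4% and 9.74%. In the 95 calls of the 18-library fit the shares were 7.37% for NFAT and 8.42% for AP-1. The 853 included 12 peaks on chromosome 9 from 3000001 to 3038459 and 10 on chromosome 3 from 2999991 to 3080610. The part of such regions in these shares was not tested. The shares are descriptions with no test.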
